A study of Homo sapiens with 3 samples.

Results

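Aminoacyl-tRNA synthetases are the enzymes that attach each amino acid to its transfer RNA, and they set the supply of charged tRNA to the ribosome. The genes described here are 9 cytosolic synthetases, AARS1, CARS1, EPRS1, GARS1, LARS1, MARS1, SARS1, WARS1 and YARS1, chosen by name in the platform annotation, with every probe set of each. They are 9 of the 14884 genes named on the array. All 9 were measured above the floor used here, at 10 probe sets, of which WARS1 had 2. The cells were MDA-MB-231, a human cell line established from a triple-negative breast cancer. One culture was kept for 72 h with 10 µM CFX, one for 72 h with 10 µM Mt-CFX, and the control for 72 h with 1% DMSO, the solvent. In its title the series speaks of ciprofloxacin, an antibiotic of the fluoroquinolone class; for Mt-CFX the labels give a code name and no structure. A DMSO content is stated only for the control, and an effect of the solvent and one of a compound cannot be told apart in a difference from the control.

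Each treatment was 1 array, which leaves every value without a replicate error: no test could be made, and no difference below was set against the spread between cultures. The values were log2 expression values made by RMA, and 8868 protein-coding genes were compared, those with at least 1 array at or above a floor of 3.89 log2, the median of all values. Array medians ran from 3.88 to 3.91 log2. Of the genes compared, 45.3% were tied exactly across the 3 arrays and a further 30.8% were tied on 2 of them, so an exact difference of 0 is a feature of these values and does not measure a lack of change. Of the markers of this line, VIM, CD44 and AXL were above the floor on every array and the progesterone receptor gene PGR was below it, and the luminal genes GATA3 and EPCAM were above it on every array and ESR1 on the CFX array alone. The macrophage marker CD68, also made by other cells, stood at 9.37, 9.27 and 9.13 log2 with DMSO, CFX and Mt-CFX, and the endothelial marker PECAM1 was below the floor.

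As background, an amino acid shortage leaves tRNAs uncharged, uncharged tRNA activates the kinase GCN2, and phosphorylation of the initiation factor eIF2 then favours translation of ATF4. This transcription factor acts on amino acid transporters, on enzymes of amino acid synthesis and on many synthetase genes, through a C/EBP-ATF response element in their regulatory sequence. Several kinases other than GCN2 feed the same pathway under other kinds of stress. Vertebrate cells hold part of their cytosolic synthetases in a multisynthetase complex and the rest as free enzymes. EPRS1, LARS1 and MARS1 belong to the complex, and AARS1, CARS1, GARS1, SARS1, WARS1 and YARS1 do not. GARS1 also supplies the mitochondrial enzyme, so the label cytosolic holds for it only in part.

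The core of the response element, TGATGNAA, was searched on both strands in the RefSeq promoter windows (build GRCh38.p14), which run from 250 bases before to 50 bases after an annotated start. It was in 3.62% of the 35116 promoters. Of the 7341 genes compared that had a promoter in the table, 2.66% held it, counting a match in any promoter of a gene. Of the 9 genes, 7 had a promoter in the table, and LARS1 and YARS1 had none. The core was in 4 of these 7, AARS1, CARS1, GARS1 and MARS1, each time as the reverse complement, TTNCATCA. CARS1 and GARS1 had 2 promoters each, and the match came from 1 of them. These 4 sites are shown because the same letters recurred in 3 further synthetases described below. Sequences read 5′ to 3′ along the gene, capitals mark the match, and positions count from the annotated start, with the first transcribed base as 1.
CARS1, chr11:3057407-3057436, minus strand, match from -2 to 6: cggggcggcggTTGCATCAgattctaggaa
MARS1, chr12:57488053-57488082, plus strand, match from -4 to 4: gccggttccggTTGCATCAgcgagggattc
GARS1, chr7:30594834-30594863, plus strand, match from -33 to -26: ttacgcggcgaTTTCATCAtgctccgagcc
AARS1, chr16:70289675-70289704, minus strand, match from -187 to -180: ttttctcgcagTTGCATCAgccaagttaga
The 3 sites of AARS1, CARS1 and MARS1 read TTGCATCA, the reverse complement of TGATGCAA. That narrower form, which is contained in the first motif, was in 0.866% of all promoters and in 0.817% of the genes compared. GARS1 had TTTCATCA in its place.

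The AARS1 site lay farther from the start than the others, and its whole upstream window is given for context, chr16:70289507-70289756 on the minus strand, ending at the base before the start.
AARS1 upstream: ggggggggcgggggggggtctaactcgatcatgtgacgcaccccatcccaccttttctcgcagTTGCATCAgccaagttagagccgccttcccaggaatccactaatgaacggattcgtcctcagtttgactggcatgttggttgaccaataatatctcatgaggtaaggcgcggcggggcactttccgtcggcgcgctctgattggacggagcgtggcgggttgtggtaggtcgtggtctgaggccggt

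No match to TGATGNAA was found in the promoter windows of EPRS1, SARS1 and WARS1. WARS1 is also known as a gene induced by interferon-gamma. Of the 7 genes it alone held a match to the interferon-stimulated response element, which was in 3.57% of all promoters and 3.47% of genes compared. It also held TTCNNNGAA, the interferon-gamma activated site, as did CARS1. That site was in 7.66% of all promoters and 8.38% of genes compared. Both WARS1 matches came from the more downstream of its 2 annotated starts.
WARS1, chr14:100375383-100375412, minus strand, interferon-stimulated response element from -55 to -46: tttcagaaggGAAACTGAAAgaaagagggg
WARS1, chr14:100375471-100375499, minus strand, TTCNNNGAA from -142 to -134: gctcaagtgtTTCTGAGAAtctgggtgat
Both are shown because no other of the 7 genes with a promoter in the table had them together. A match shows only that the letters are present.

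With Mt-CFX all 9 synthetases were higher than with the vehicle, by a median of 0.75 log2, or 1.69-fold. Among all genes compared 23.9% were higher by any amount, 23.2% were lower and the median difference was 0.00. Of the 9, 6 were at least 1.5-fold higher, against 1.45% of all genes (1.25% were lower by as much), and WARS1 alone, at 1 of its 2 probe sets, was at least 2-fold higher, against 0.304%. With CFX 8 of the 9 were higher, against 25.8% of all genes, by a median of 0.20 log2, or 1.15-fold. WARS1 was lower by a small margin, as were 15.0% of all genes by any amount. Of the 8868 genes, 5248 were equal to the control with CFX and 4691 with Mt-CFX. None of the 9 was equal to it, so the shares of all genes are lowered by ties that the 9 do not have. None of the 9 reached 1.5-fold with CFX, a size that 0.0451% of all genes reached upward and 0.101% downward. The 9 genes were singled out with earlier results of these arrays known, so these counts describe them and do not stand for the whole enzyme family, which is given further below. Both compounds were set against the same control array.

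**Figure D1:**
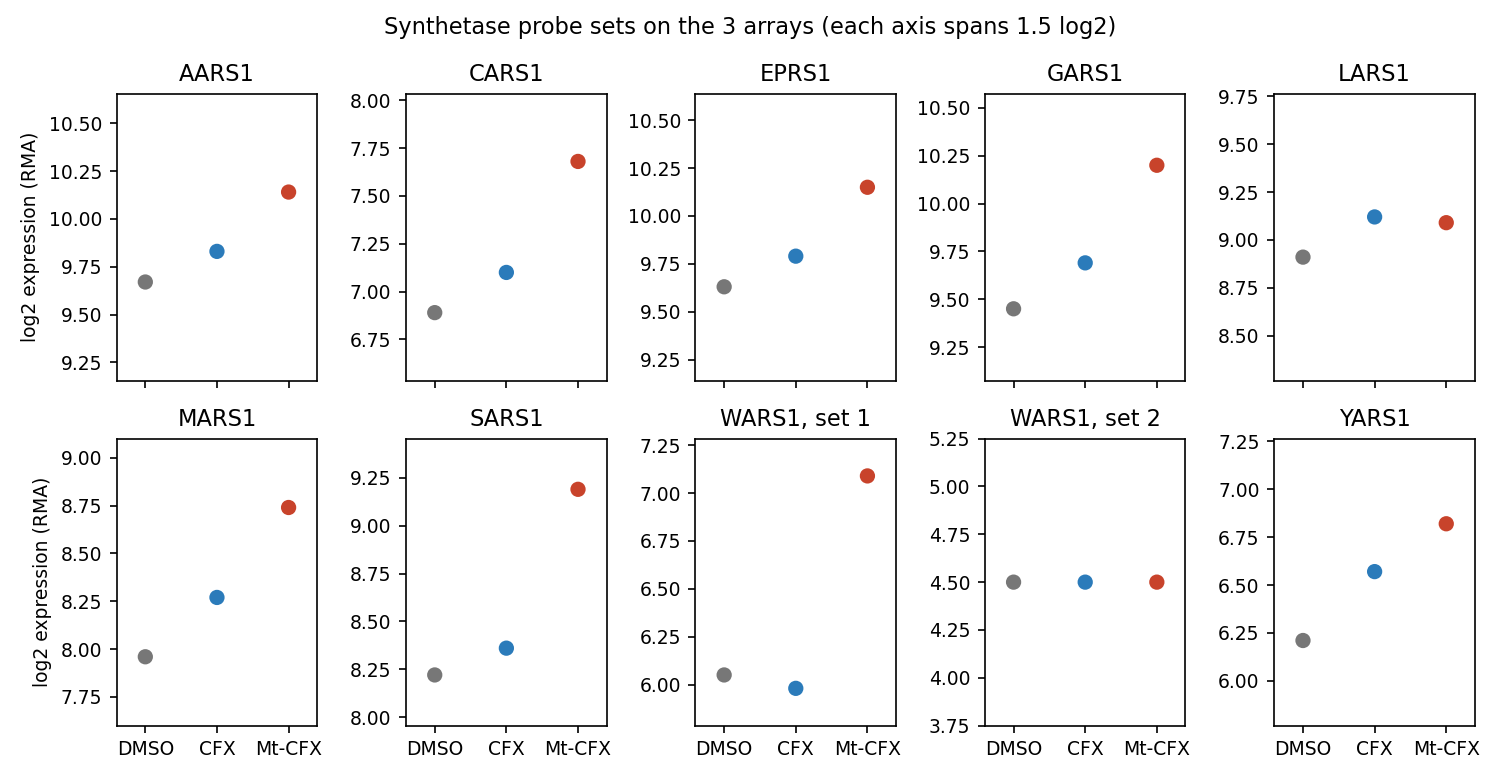
Deposited log2 expression values (y axis, each panel spanning 1.5 log2) of the 10 probe sets of the 9 synthetases on the DMSO, CFX and Mt-CFX arrays (x axis); each point is 1 array. The Mt-CFX point is the highest of the 3 in every panel except LARS1, where CFX is at 9.12 and Mt-CFX at 9.09, and the second WARS1 probe set, which is at 4.50 on all 3.

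Among the enzymes of the complex, MARS1, the methionyl-tRNA synthetase that also charges the initiator tRNA, was at 7.96 with DMSO, 8.27 with CFX and 8.74 with Mt-CFX. It was thus higher with both compounds, by 0.30 log2 with CFX and by 0.78 log2 with Mt-CFX. In the order of CFX differences, from the highest down, it ranked 98 of 8868 genes.

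EPRS1 encodes a bifunctional enzyme that charges both glutamate and proline tRNAs. Its values were 9.63 with DMSO, 9.79 with CFX and 10.15 with Mt-CFX. The step from the control was 0.17 log2 with CFX and 0.52 log2 with Mt-CFX, a 1.44-fold difference that fell just short of 1.5-fold.

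LARS1, the leucyl-tRNA synthetase, which is also known as a leucine sensor upstream of mTORC1, departed from the others. It was at 8.91 with DMSO, 9.12 with CFX and 9.09 with Mt-CFX. The differences from the control were 0.20 log2 with CFX and 0.18 log2 with Mt-CFX, so LARS1 was the only one of the 9 whose CFX value lay above its Mt-CFX value. It ranked 290 of 8868 genes in the CFX comparison and 819 in the Mt-CFX comparison.

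Among the free enzymes, WARS1, the tryptophanyl-tRNA synthetase, had the widest difference with Mt-CFX and none upward with CFX. The probe set with the higher signal was at 6.05 with DMSO, 5.98 with CFX and 7.09 with Mt-CFX. This is a 2.06-fold difference with Mt-CFX, at rank 25 of 8868 genes, against -0.06 log2 with CFX. The other WARS1 probe set was at 4.50 log2 on all 3 arrays, above the floor. This is an exact tie, which does not measure a lack of change. The strand that this second probe set reads was not tested. With the mean of both probe sets the Mt-CFX difference of WARS1 was 0.52 log2, and no synthetase then reached 2-fold.

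SARS1, the seryl-tRNA synthetase, followed. It was at 8.22 with DMSO, 8.36 with CFX and 9.19 with Mt-CFX. The Mt-CFX value stood 1.96-fold above the control, at rank 30, while the CFX value stood 1.10-fold above it, at rank 559. SARS1 and WARS1 thus combined the widest differences with Mt-CFX and the smallest with CFX among the 9.

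CARS1, the cysteinyl-tRNA synthetase, was at 6.89 with DMSO, 7.10 with CFX and 7.68 with Mt-CFX, and was higher by 0.21 and 0.79 log2. GARS1, the glycyl-tRNA synthetase, was at 9.45, 9.69 and 10.20 log2 in the same order, and was higher by 0.24 and 0.75 log2. Both ranked among the highest genes with Mt-CFX, CARS1 at 63 and GARS1 at 70 of 8868, next to MARS1 at 64.

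YARS1, the tyrosyl-tRNA synthetase, had the widest difference of the 9 with CFX. Its values were 6.21 with DMSO, 6.57 with CFX and 6.82 with Mt-CFX. The CFX difference was 0.36 log2, or 1.28-fold, at rank 60 of 8868, and the Mt-CFX difference was 0.61 log2, or 1.52-fold, just past 1.5-fold. AARS1, the alanyl-tRNA synthetase, was at 9.67 with DMSO, 9.83 with CFX and 10.14 with Mt-CFX. It was higher by 0.16 and 0.47 log2, so with Mt-CFX it was next to last among the 9, above LARS1.

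Without replicate arrays, genes with several probe sets give the only internal scale of disagreement, and this is not a replicate error. Over 284 protein-coding genes with more than 1 probe set above the floor, the gap between the Mt-CFX differences of the probe sets of a gene had a median of 0.0549 log2 and a 90th percentile of 0.353 log2. The Mt-CFX differences of 8 of the 9 synthetases, all but LARS1, were wider than 0.353 log2, as were those of 7.85% of all genes compared in either direction. For CFX the 90th percentile was 0.224 log2, and the differences of 3 of the 9, GARS1, MARS1 and YARS1, were wider, as were those of 4.34% of all genes. Such a gap arises within the arrays and holds no spread between cultures. The gap between the WARS1 probe sets was itself as wide as the WARS1 difference.

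Set directly against CFX at the same dose and time, Mt-CFX gave higher values for 8 of the 9 synthetases, with a median of 0.47 log2. Of all genes 20.1% were higher and 25.2% were lower by any amount in this comparison. WARS1 was higher by 1.11 log2, or 2.15-fold, and SARS1 by 0.83 log2, or 1.78-fold, and these were the 2 of the 9 past 1.5-fold, against 1.13% of all genes. At least 2-fold was reached by WARS1 alone, against 0.259%. With the mean of its probe sets WARS1 was higher by 0.55 log2, which left SARS1 as the 1 gene of the 9 past 1.5-fold and 0 past 2-fold. CARS1 was just outside at 1.49-fold. GARS1 was higher by 0.51 log2, MARS1 by 0.47, EPRS1 by 0.36, AARS1 by 0.31 and YARS1 by 0.24. LARS1 differed by -0.03 log2, or 0.982-fold. With 1 array per compound no interval can be given for any of these differences, and the near-equal values of LARS1 do not show that the compounds act alike on it.

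**Figure D2:**
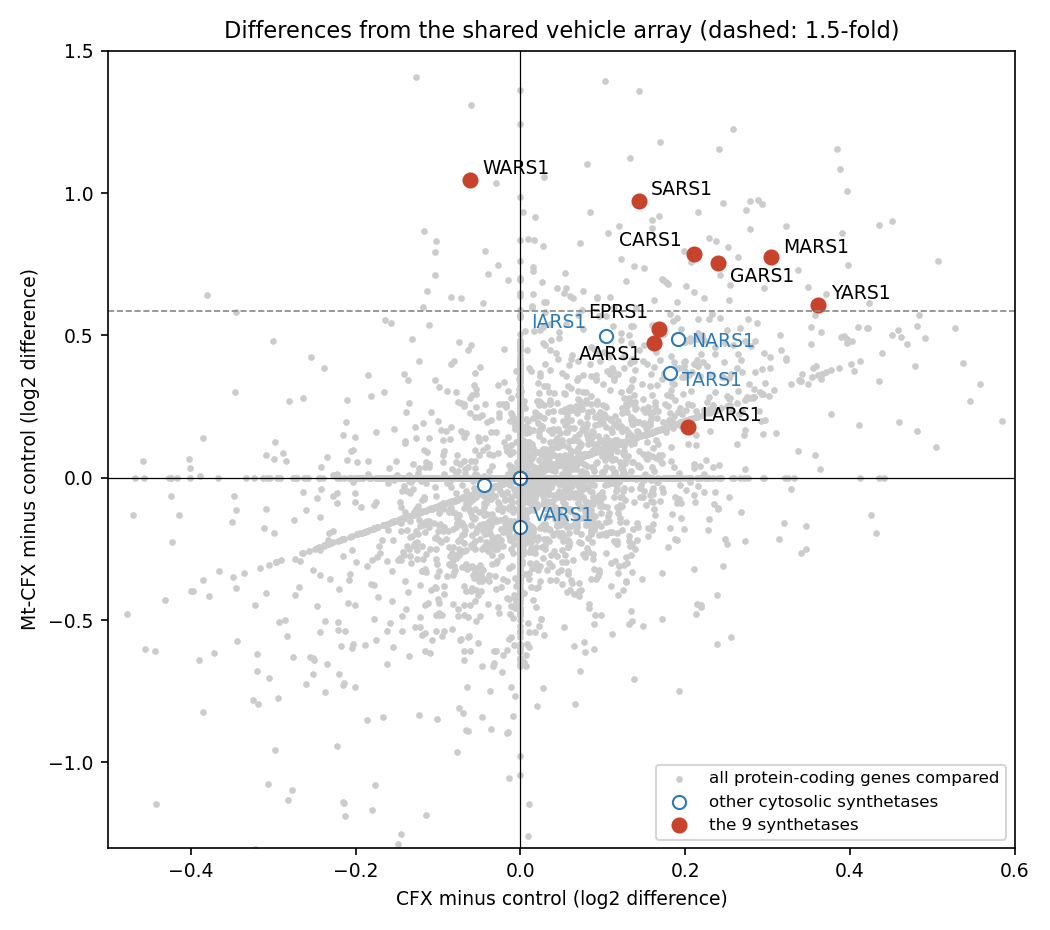
Log2 difference from the vehicle array with CFX (x axis) and with Mt-CFX (y axis) for the protein-coding genes compared (grey; 38 lie outside the axes), the 9 synthetases (red) and the other cytosolic synthetases (open blue circles); the dashed line is 1.5-fold. The red points lie above 0 on the y axis from LARS1 at 0.18 to WARS1 at 1.05, and WARS1 is the one red point left of 0 on the x axis. Both axes share the control array.

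The remaining cytosolic synthetases give the context for the 9. Another 9 were named on the array and above the floor. With Mt-CFX their median difference was 0.00 log2. Of these 9, 3 were higher and 2 lower, beside 23.9% and 23.2% of all genes, and 4 were tied on all 3 arrays. IARS1, for isoleucine, was higher by 0.50 log2, NARS1, for asparagine, by 0.49, and TARS1, for threonine, by 0.37. HARS1, KARS1, RARS1 and the threonyl-tRNA synthetase paralogue TARS3 were the tied genes. QARS1, for glutamine, was at -0.03 log2. VARS1, for valine, was at -0.17 log2 at one probe set and -0.16 at the other. Over all 18 cytosolic synthetases measured, the median was 0.48 log2 with Mt-CFX and 0.15 log2 with CFX. Of the 18, 12 were higher with Mt-CFX and 11 with CFX, against 23.9% and 25.8% of all genes.

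The synthetases were also grouped by the element core. Of the 14 cytosolic synthetases with a promoter in the table, 7 held TGATGNAA, against 2.66% of the genes compared. All 7 were higher with Mt-CFX, from 0.37 to 0.79 log2 with a median of 0.50, and 23.9% of all genes were higher. These were AARS1, CARS1, GARS1 and MARS1, and, outside the 9, IARS1, NARS1 and TARS1, whose sites are shown because those were the other 3 synthetases that were higher.
IARS1, chr9:92293692-92293721, minus strand, match from -13 to -6: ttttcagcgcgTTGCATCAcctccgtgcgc
NARS1, chr18:57621804-57621833, minus strand, match from 15 to 22: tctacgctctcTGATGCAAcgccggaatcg
TARS1, chr5:33440956-33440985, plus strand, match from 3 to 10: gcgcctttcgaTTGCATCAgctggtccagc
The 7 without a match had a median of 0.00 log2, and 3 of them were higher. HARS1, KARS1 and RARS1 among them were tied on all 3 arrays, so that median does not measure a lack of change. They comprised HARS1, KARS1, QARS1 and RARS1, at -0.03 to 0.00, and EPRS1, SARS1 and WARS1, of which the last was the highest of all. Genes without the letters thus included both the highest values and most of those at or near 0. The motif was chosen with earlier results of these data known, and the split was not tested.

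**Figure D3:**
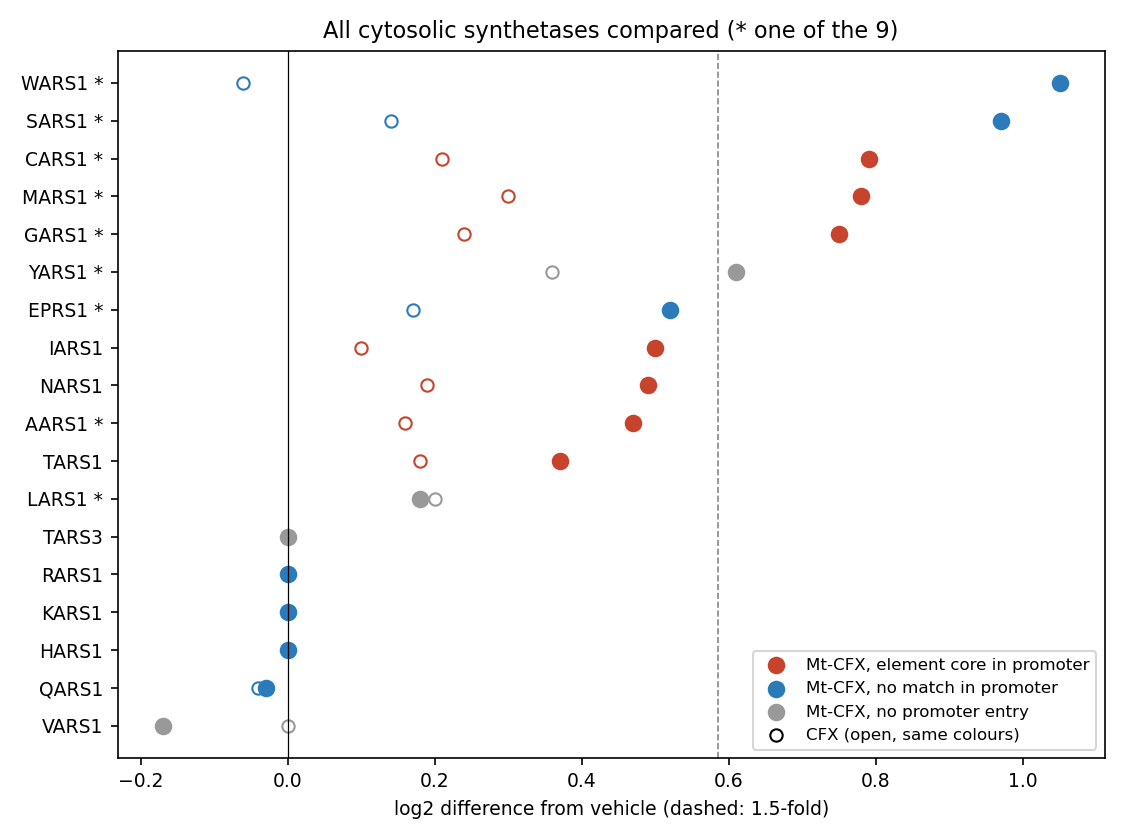
Log2 difference from the vehicle array (x axis) with Mt-CFX (filled) and CFX (open) for the 18 cytosolic synthetases measured (y axis, the 9 marked by a star), coloured by whether the RefSeq promoter held TGATGNAA. The 7 genes with the element core lie between 0.37 and 0.79 with Mt-CFX, and those without a match lie either near 0 or, for EPRS1, SARS1 and WARS1, at 0.52 or above.

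The place of an enzyme in the cell and its catalytic class were compared as descriptions. The 7 measured enzymes of the multisynthetase complex had a median of 0.18 log2 with Mt-CFX, with 4 higher. The 11 free enzymes had a median of 0.49, with 8 higher, and 23.9% of all genes were higher. Of the 7 in the complex 2 were tied on all 3 arrays, as were 2 of the 11 free enzymes. These ties enter the medians and do not measure a lack of change. Among the 9 alone, the 3 of the complex had a median of 0.52 log2 and the 6 free ones 0.77. At least 1.5-fold was reached by MARS1 alone of the 7 in the complex and by 5 of the 11 free enzymes, against 1.45% of all genes. These 5 were all among the 6 free members. With the mean of its probe sets WARS1, one of them, was at 0.52 log2, below 1.5-fold. The scaffold protein AIMP1, which holds the complex together, had equal values on all 3 arrays. By catalytic class, the 9 measured class I enzymes had a median of 0.50 log2 and the 8 class II enzymes one of 0.42, with EPRS1, which has a domain of each class, at 0.52. The ranges of the classes overlapped, from -0.17 to 1.05 for class I and from 0.00 to 0.97 for class II. The 0.00 of class II came from 3 enzymes tied on all 3 arrays, and 1 class I enzyme was tied as well.

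Genes that handle tRNA in other ways differed in both directions, as did all genes compared. Of 29 measured genes of tRNA processing, modification and delivery, 9 were higher than the control with Mt-CFX, 5 lower and 15 equal to it. Of all genes 23.9% were higher and 23.2% lower. The list had a median of 0.00 log2, and 13 of the 29 were tied on all 3 arrays. TSEN15, a subunit of the tRNA splicing endonuclease, was the highest at 0.80 log2, followed by EEF1G, a subunit of the exchange factor for elongation factor 1A, at 0.38, and DTD1, which removes D-amino acids from tRNA, at 0.26. The lowest were ELAC2, which trims the 3′ end of precursor tRNAs, at -0.44, EEF1A2 at -0.26 and TSEN54 at -0.16. The only measured genes from the mitochondrial list were GATB and QRSL1, subunits of the mitochondrial glutaminyl-tRNA amidotransferase, and both had equal values on the 3 arrays. The 17 mitochondrial synthetases of that list were not analysed here.

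Of the lists compared, the amino acid response genes had the median nearest to that of the 9. Of 42 listed, 23 were named on the array and 22 were above the floor. Of these 22, 17 were higher with Mt-CFX, against 23.9% of all genes, and 2 were lower, against 23.2%. Their median was 0.55 log2, and 11 were at least 1.5-fold higher, against 1.45% of all genes. The list was chosen with earlier results known. ATF4 was at 8.12 with DMSO, 8.36 with CFX and 8.95 with Mt-CFX, and its differences of 0.24 and 0.83 log2 lay within the range of the 9 synthetases in both comparisons. The stress cytokine GDF15 at 2.82 log2, the mTOR inhibitor DDIT4 at 2.58 and the pseudokinase TRIB3 at 1.97 were higher by far more than any synthetase. DDIT3, which encodes CHOP, differed by 1.69 log2 from a control value below the floor, so that size is uncertain. GCN1, an activator of GCN2, was at -0.33 log2, the kinase gene EIF2AK1 at -0.01, and EIF2AK4, the gene for GCN2, was equal on all 3 arrays. With CFX the list had a median of 0.02 log2, below the 0.20 log2 of the 9 synthetases. Its highest gene was at 0.67 log2, above the 0.36 log2 of the highest synthetase. Of the 22, 13 were higher with CFX, against 25.8% of all genes, 3 were lower, against 15.0%, and 6 were equal to the control. At least 1.5-fold higher was 1 of the 22, against 0.0451% of all genes, and none of the 9. The list also held genes that act before ATF4, such as GCN1 and EIF2AK4, and its median includes them.

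Interferon-gamma response genes were listed because of WARS1. Of 36 listed, 18 were named on the array and 12 were above the floor. Of the 12, 4 were higher with Mt-CFX, against 23.9% of all genes, and 2 were lower, against 23.2%. The median was 0.00 log2, with a range from -0.02 to 0.21, and 6 of the 12 were tied on all 3 arrays. The highest were JAK1 at 0.21 log2 and CD274 and B2M at 0.11, and the lowest STAT3 and JAK2 at -0.02. IRF1, a transcription factor early in that response, had equal values on all 3 arrays.

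**Figure D4:**
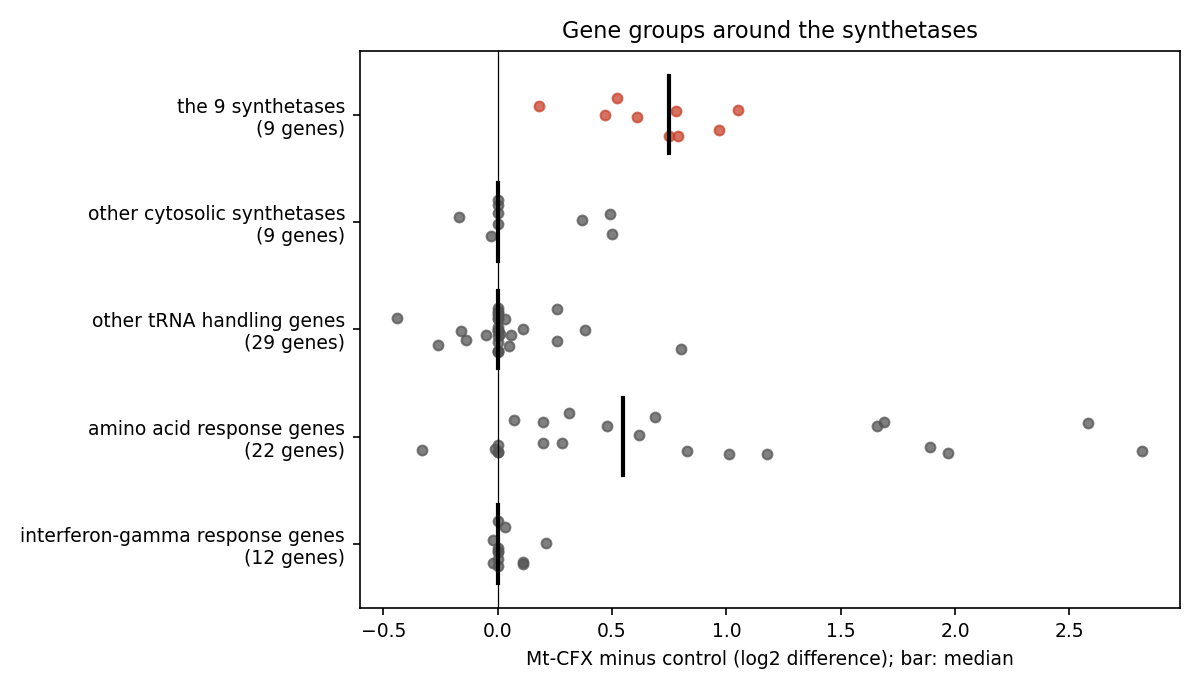
Log2 difference of Mt-CFX from the vehicle array (x axis) for each measured gene of 5 groups (y axis; each point is a gene, spread vertically for legibility, and the bar is the median). The 9 synthetases have a median of 0.75 and the amino acid response genes one of 0.55, and the other 3 groups have medians of 0.00.

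The genes whose pair of differences lay nearest to the medians of the 9 synthetases were OGFRL1, TSEN15, TXNL4B, DESI2 and RSL24D1. The Euclidean distance was taken over the differences from the control with CFX and with Mt-CFX, not over expression levels. OGFRL1 was at 9.29 with DMSO, 9.50 with CFX and 10.05 with Mt-CFX, a distance of 0.006 log2. TSEN15 was at 6.94, 7.13 and 7.73 log2, a distance of 0.045. The other 3 lay within 0.064. With 3 values per gene such likeness is a description of these arrays only.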

How the data were processed

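Total RNA from 3 cultures was measured on 3 whole-transcript arrays, 1 per group. The deposited values are log2 expression per probe set. Per the submitters' processing notes, the authors used RMA and the software Affymetrix Expression Console. Its version, annotation release and build are not given in the sources used here. RMA normalizes the arrays to one another, so a change in total RNA per cell is not visible.

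The platform annotation named 16098 of 53617 probe sets, all with 1 gene, and all matched the RefSeq gene table by gene ID. The other 37519 were unnamed here. For comparisons of genes the probe set with the highest mean was used, protein-coding genes were kept when the highest array reached 3.89 log2, and differences of log2 values were taken. Genes were counted at 1.5-fold and 2-fold in place of a test, since a group was 1 array. Counting was checked on simulated data.

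Named genes were all 9 synthetases, every other cytosolic synthetase and scaffold protein measured, the 3 highest and 3 lowest of each further list for Mt-CFX over control (fewer where values tied at 0), ATF4, DDIT3, and the 5 nearest genes. IRF1 and EIF2AK4, tied with others at 0, were named after their values were seen. Members, lists and motifs were chosen with earlier results of these data known. Promoters came from a RefSeq table for GRCh38.p14 and were searched on both strands. Protein sequences were not used here. Alternatives were other floors, other choices of probe set, re-centring by the median or by a lowess curve with a span of 0.3, and genes of every type. Python 3.11.15, numpy 2.4.6, pandas 2.3.3, statsmodels 0.14.6 and matplotlib 3.10.9 were used. Precision is limited by the number of arrays.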

Additional observations from a re-analysis of the deposited data

How the results depend on the processing

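The synthetase values depended on the choice of probe set through WARS1 alone, the one of the 9 genes with several probe sets. With the mean of the probe sets of a gene, the median Mt-CFX difference from control was 0.61 log2, 5 of the 9 were past 1.5-fold and 0 past 2-fold, and in Mt-CFX over CFX 1 was past 1.5-fold and 0 past 2-fold. With the lowest-mean probe set the same counts held, with medians of 0.61 log2 for Mt-CFX over control and 0.36 log2 for Mt-CFX over CFX. The floors, the centring on the median and the lowess curve moved none of the 3 medians by more than 0.01 log2 and changed no count of the 9. The shares of all genes past a size, both directions together, did move. For CFX over control the share past 1.5-fold was 0.147% as reported, 0.0728% with the floor at the 75th percentile and 0.385% with genes of every type. Its share past 2-fold was 0.0226% as reported, 0% with that floor or a floor on the mean, and 0.0691% with genes of every type. For Mt-CFX over control the share past 2-fold was 0.564% as reported and 0.856% with the floor at the 75th percentile. The other shares stayed within 1.5 times under each floor and with genes of every type. No paired analysis was possible because each group was 1 array. Leaving out an array was not possible for the same reason. Small differences such as those with CFX are limited most by the lack of replicates and by the exact ties.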

Other observations

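The WARS1 probe sets differed in where their platform numbers fell. Of the 20 named probe sets with the nearest numbers to the one that was higher with Mt-CFX, 17 belong to genes on the minus strand of chromosome 14, the strand of WARS1. Around the probe set with equal values on all 3 arrays, 18 of the 20 nearest belong to genes on the plus strand of chromosome 14. The strand that this probe set reads was not tested.

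The element core TGATGNAA was also counted outside the cytosolic synthetases. Of the other 7327 genes compared that had a promoter in the table, 188 held it, or 2.57%. Among the 103 of these at least 1.5-fold higher with Mt-CFX it was in 10, or 9.71%, and among the 89 at least 1.5-fold lower it was in 3, or 3.37%. Of 18 amino acid response genes with a promoter, 2 held it. The narrower form TGATGCAA was in 2 of the 103 genes and in 0 of the 18, against 6 of the 14 cytosolic synthetases. Of the 7327 genes 0.737% held this narrower form. These counts are descriptions, and no test was made.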
